A study of Mus musculus with 33 samples.

Results

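Among the 5 SPON mammary tumours of the series, 2 had very little RNA of Trp53, the mouse gene for the tumour suppressor p53, and these 2 are set against the other 3. They were chosen by the measured value alone. Trp53 reads were divided by all reads of the library and multiplied by 1000000 (CPM), a tumour under 10 was taken as Trp53-low and a tumour over 20 as other, and no SPON tumour fell between. The Trp53-low tumours, SPON replicates 1 and 4, had 2.75 and 2.39 on this scale, whereas the other SPON tumours, replicates 2, 3 and 5, had 33.3, 38.5 and 32.9. The nearest values on either side of the thresholds were thus 2.75 and 32.9. These values made the groups, so they are given as a description and Trp53 itself was not tested.

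The series held RNA-seq libraries of 33 mouse mammary tumours, and its title concerns low molecular weight cyclin E and inhibition of the kinase PKMYT1. All tumours carried the genotype label FVB, an inbred mouse strain, and the SPON and WT tumours were labelled as untreated. The labels name no transgene, Trp53 allele, age or sex for SPON or WT tumours, and do not say which of them are the cyclin E transgenic or PyMT tumours that the design text mentions. Besides the 5 SPON tumours there were 5 WT tumours, 11 tumours treated with RP-6306 (an inhibitor of PKMYT1) at 20 mg/kg and 4 vehicle tumours (VEH), a further set whose titles end in _7, with no time stated in the sample fields, of 4 RP-6306 tumours (RP6306_7) and 3 vehicle tumours (VEH_7), and 1 tumour whose title and treatment field disagreed and which was left in no group. The growth protocol states that tumours were transplanted into mice. It does not say whether this holds for SPON and WT tumours.

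p53 is a transcription factor that is stabilised by DNA damage and other stress and then induces genes that halt the cell cycle, repair DNA or trigger apoptosis. Its level is held down by Mdm2, a ubiquitin ligase that is itself a p53 target, and its loss is frequent in breast cancer. In the mouse as in human, Trp53 lies head to head with Wrap53, which encodes a protein of Cajal bodies and telomerase, so that the starts of both genes share one stretch of DNA.

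That stretch is shown because both genes were low in the same tumours. It is the RefSeq window of 250 bases before to 50 after the Trp53 start (GRCm38.p6, chr11:69580109-69580408, plus strand), and the capitals mark the 208 bases that it shares with one of the 2 RefSeq start windows of Wrap53 (chr11:69580201-69580500, minus strand).
Trp53: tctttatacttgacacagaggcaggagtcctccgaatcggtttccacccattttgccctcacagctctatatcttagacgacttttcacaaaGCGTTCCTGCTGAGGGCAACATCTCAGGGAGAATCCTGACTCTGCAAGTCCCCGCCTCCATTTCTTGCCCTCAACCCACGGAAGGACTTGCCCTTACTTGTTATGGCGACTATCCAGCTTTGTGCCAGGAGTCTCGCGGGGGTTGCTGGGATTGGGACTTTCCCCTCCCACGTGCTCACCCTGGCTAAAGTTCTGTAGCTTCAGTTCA

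Over all 33 libraries, Trp53 was lowest in the 2 Trp53-low SPON tumours. With library scaling by TMM factors, as used for all CPM values from here on, it stood at 3.58 and 2.39 CPM in these 2, from 46 and 37 reads, against 30.9, 37.4 and 47.2 CPM in the other SPON tumours, from 599, 549 and 597 reads. The range was 133 to 259 CPM in WT, 22.5 to 45.8 in RP6306, 20.2 to 36.6 in VEH, 51.6 to 61.8 in RP6306_7 and 42.2 to 54.2 in VEH_7. The other SPON tumours thus lay inside the span of the RP-6306 and vehicle groups, and the WT tumours lay above every other group. The 5 SPON libraries held 14277130 to 18126639 reads in genes. The processed pseudogene Trp53-ps, which could take reads from Trp53, had 0 and 1 reads in the Trp53-low tumours and 3, 3 and 4 reads in the other SPON tumours. In bulk tumour RNA, fewer cells that express a gene and less RNA per cell cannot be told apart.

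**Figure D1:**
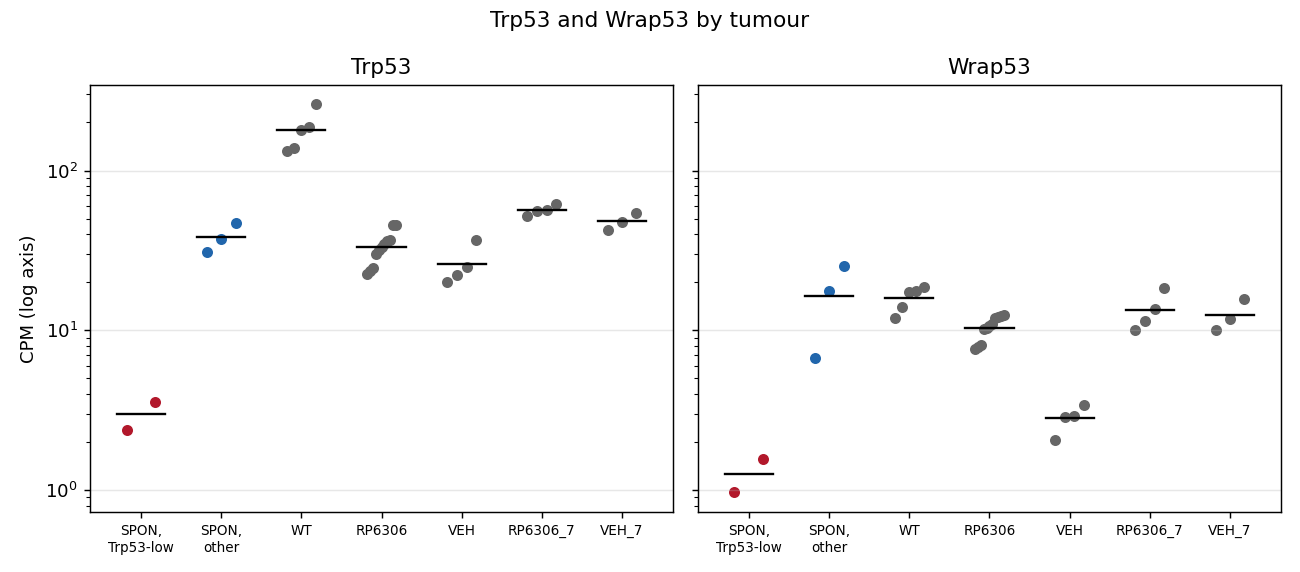
CPM of Trp53 (left) and Wrap53 (right) in single tumours on a log axis, with 1 point per tumour and a black line at the group mean, for 32 grouped tumours. Both genes are lowest in the 2 Trp53-low SPON tumours, where Trp53 stands at 3.58 and 2.39 CPM and Wrap53 at 1.56 and 0.968 CPM.

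Wrap53, Efnb3, Atp1b2 and Sat2, which lie beside Trp53 on chromosome 11, had less RNA in the same tumours, without passing the test. Wrap53 (chr11:69561758-69580255, minus strand) had 1.56 and 0.968 CPM in the Trp53-low tumours and 6.66, 17.6 and 25.3 CPM in the other SPON tumours. The groups did not overlap, and the log2 fold change was -3.66 with an SE of 0.83, but the edgeR adjusted p of 0.122 missed the threshold of 0.05. Efnb3, which encodes a membrane-bound ligand of Eph receptors, had 0.622 and 0.323 CPM against 2.58, 5.72 and 2.93 CPM, with an edgeR adjusted p of 0.234. On the other side of Trp53, Atp1b2, a subunit of the sodium and potassium pump, had 2.26 and 1.68 CPM against 3.72, 5.17 and 7.04 CPM. Next to it, Sat2, an acetyltransferase gene, had 0.311 and 0 CPM against 2.63, 1.70 and 3.32 CPM. Outside SPON, Wrap53 averaged 16.0 ± 2.86 CPM in WT (SD, n = 5), 10.4 ± 1.84 CPM in RP6306 (SD, n = 11), 2.81 ± 0.548 CPM in VEH (SD, n = 4), 13.3 ± 3.59 CPM in RP6306_7 (SD, n = 4) and 12.5 ± 2.98 CPM in VEH_7 (SD, n = 3). For Wrap53, Efnb3, Atp1b2 and Sat2 alike, both Trp53-low tumours lay below all 3 others, and none passed the test. In the gene positions used here Wrap53 ended at 69580255 and Trp53 started at 69580359, so the genes themselves did not overlap. No source used here gives the annotation release or strand setting of the counting, so how reads near these starts were counted is not known.

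Further along the genes varied. Fxr2, an RNA-binding protein of the fragile X family that starts 52.6 kb from Trp53, had 2.65 CPM in SPON replicate 1 and 105 CPM in SPON replicate 4, against 52.9, 97.5 and 79.9 CPM in the other SPON tumours. Only replicate 1 was low. Mpdu1 overlapped, with 31.98 and 54.0 CPM against 40.9, 74.3 and 66.8 CPM. Cd68, a macrophage marker 83.9 kb from Trp53, had 17.7 and 30.3 CPM against 39.2, 62.2 and 127 CPM (edgeR adjusted p = 0.300). On the Efnb3 side, Cntrob, a centrosome gene, had 9.10 and 11.7 CPM against 28.1, 30.3 and 28.7 CPM (edgeR adjusted p = 0.211), and the clock gene Per1 had 24.5 and 50.7 CPM against 252, 98.2 and 80.8 CPM (edgeR adjusted p = 0.257). In these 3 genes both Trp53-low tumours lay below all others, and they were picked after their values had been seen. Other genes within 1 Mb, picked likewise, went the other way. Nlgn2 had 197 and 115 CPM against 61.3, 31.7 and 37.1 CPM in the other SPON tumours. For Kctd11 the values were 57.9 and 67.2 CPM against 20.0, 9.12 and 10.8 CPM. Alox12e, the only gene called within 1 Mb, had 54.1 and 167 CPM against 2.53, 5.58 and 6.09 CPM. Dnah2, an axonemal dynein gene on the far side of Efnb3, had 0 and 0.194 CPM against 21.1, 0.885 and 0.0791 CPM, so its lower mean rests on SPON replicate 2. Within 0.2 Mb of Trp53, 5 of 20 tested genes had both Trp53-low tumours below all others (25%), namely Efnb3, Wrap53, Atp1b2, Sat2 and Cd68, with none above. Over all tested genes these shares were 16.1% below and 13.3% above. The planned windows were 1 Mb and 5 Mb, and the 0.2 Mb window was added to them. Sat2 had 4 reads in the Trp53-low tumours and 118 in the others. Such a gene could pass the filter on low counts through the others alone, so the 0.2 Mb share is a description only. Within 1 Mb the counts were 13 below and 10 above of 83 genes (15.7% and 12%), near the shares over all tested genes. The median log2 fold change within 1 Mb was -0.24. Within 5 Mb that median was -0.09, against -0.02 over all tested genes. DNA copy number was not measured in the data used here.

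**Figure D2:**
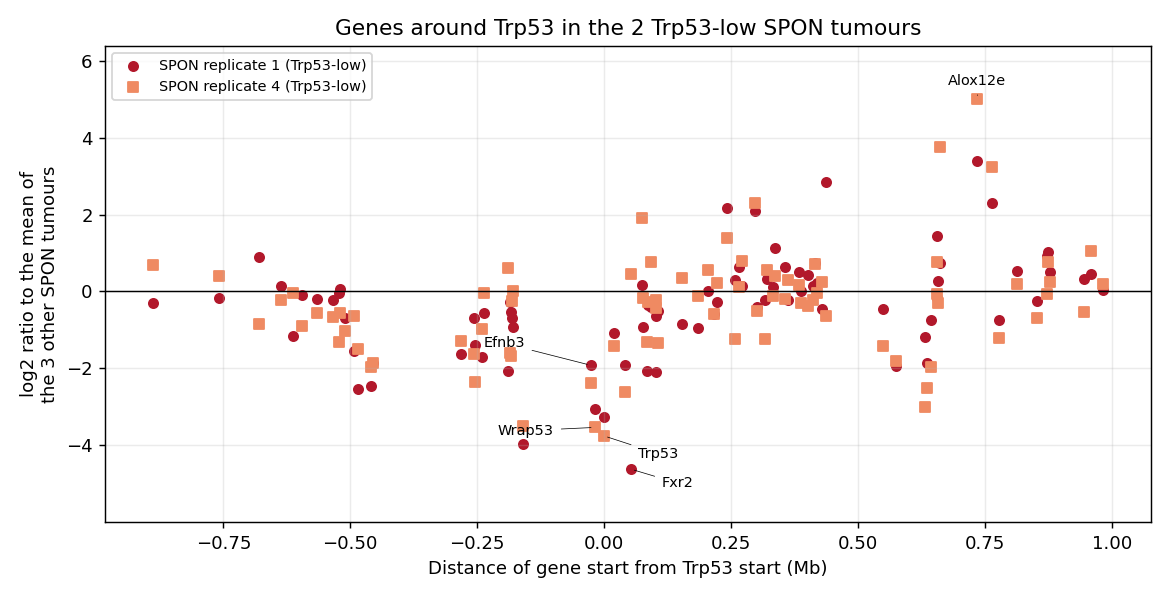
Log2 ratio of each Trp53-low SPON tumour to the mean of the 3 other SPON tumours (with 0.5 CPM added to both), by the distance in Mb between the lower coordinates of each gene and of Trp53. Points are genes, circles are SPON replicate 1 and squares SPON replicate 4. Both tumours dip at Efnb3, Wrap53 and Trp53, Fxr2 is low in replicate 1 alone, and Alox12e is high in both.

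Across the transcriptome, 15927 genes other than Trp53 were tested with edgeR's quasi-likelihood test. At a Benjamini-Hochberg adjusted p under 0.05, 47 genes were higher in the Trp53-low tumours (0.295% of those tested) and 23 lower (0.144%), together 70 (0.44%). All 70 differed by at least 2-fold, and in all 70 the groups did not overlap. Without any adjustment 2113 genes had p under 0.05, where an even spread of p-values would give 796. DESeq2 called 1142 of the 15927 genes (526 higher and 616 lower), and limma voom called 65 (50 and 15). These counts are the background for list members given below by unadjusted p, DESeq2 or limma voom. The edgeR calls depend on single libraries. Without SPON replicate 1, 3 or 4 no gene was called, with 1584, 1524 and 1556 genes at an unadjusted p under 0.05, so no gene named below kept its call in those fits. Without replicate 2 there were 225 calls, and without replicate 5 there were 28, of which 17 were among the 70. All 70 genes kept their direction in each of these fits. As the groups come from a measured value and from no label, the p-values state only how far these 2 libraries lay from these 3, and nothing states that the libraries came from separate animals.

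Over the whole transcriptome the 2 Trp53-low tumours differed from each other in fewer genes than either did from the other 3. Between them, 956 of the 15927 genes (6%) differed by at least 4-fold. Among the other 3 the counts were 1100 for replicates 2 and 3, 766 for replicates 3 and 5, and 1539 for replicates 2 and 5. For the 6 pairs of a Trp53-low with another tumour the lowest count was 1411, between replicates 4 and 2, and the highest was 2251, between replicates 4 and 5. Replicate 2 thus lay about as far from replicate 5 of its own group as from replicate 4.

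The Trp53-low tumours shared a block of neighbouring genes around Met on chromosome 6 with far higher RNA. Met encodes the receptor tyrosine kinase for hepatocyte growth factor and can act as an oncogene. Met (chr6:17463800-17573980) had 2303 and 2553 CPM in the Trp53-low tumours and 56.4, 104 and 158 CPM in the other SPON tumours. Its log2 fold change was 4.56 with an SE of 0.63 and an edgeR adjusted p of 0.0419. Both Trp53-low tumours were far above all 3 others, and the 2 values differed little from each other. Tes (chr6:17065149-17105828), a LIM-domain protein of cell adhesions, had 4899 and 5269 CPM against 63.0, 101 and 231 CPM, a log2 fold change of 5.31 (edgeR adjusted p = 0.0456). Without SPON replicate 5 that change was 6.004. Capza2, which encodes a subunit of the actin capping protein, had 3101 and 3604 CPM against 179, 120 and 247 CPM, a log2 fold change of 4.24 (edgeR adjusted p = 0.0419). It was named after its values had been seen.

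The block held 8 adjacent tested genes in which both Trp53-low tumours lay above all others by a log2 fold change of at least 1.5, from Gm15473 through Gm4876, Tes, Cav2, Cav1, Met and Capza2 to St7. A run was counted from 3 such neighbours on, and this was the longest of 15 runs of higher genes and 16 of lower genes along 14719 tested genes. Cav2 and Cav1, which encode the membrane coat proteins caveolin-2 and caveolin-1, did not pass the test. Cav2 had 1435 and 1373 CPM against 276, 41.3 and 69.9 CPM (edgeR adjusted p = 0.132). For Cav1 the values were 893 and 248 CPM against 106, 39.9 and 92.7 CPM (edgeR adjusted p = 0.128). Within 1 Mb of Met, 7 of 10 tested genes had both Trp53-low tumours above all others (70%), against 13.3% of all tested genes, a window chosen after the values had been seen. Gm15473 and Gm4876 are counted in the block and in this share, but may not be separate members. Gm4876 spans Tes on the opposite strand and Gm15473 lies next to it, and the strand setting of the counting is not known. Both could also pass the filter on low counts through the Trp53-low tumours alone, so this share is a description only.

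The edges of the block differed between the 2 tumours. St7 had 44.1 CPM in SPON replicate 1 and 184 CPM in replicate 4, against 19.6, 18.4 and 17.4 CPM in the other SPON tumours. Cftr, the chloride channel gene 707 kb beyond Met, had 1.79 CPM in replicate 1 and 220.1 CPM in replicate 4, against 3.82, 1.63 and 6.72 CPM. Lsm8, an RNA-processing factor, had 89.3 CPM in replicate 1 and 1080 CPM in replicate 4, against 73.3, 67.0 and 130 CPM. On the near side of the block, Mdfic had 34.4 and 979 CPM against 117, 33.9 and 59.9 CPM. Mdfic, before Met, and Lsm8, 1385 kb after it, were thus high in replicate 4 alone. These edge genes were picked after their values had been seen, and none passed the test.

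High Met was not limited to SPON tumours with low Trp53. Met averaged 2428 CPM in the Trp53-low SPON tumours (SD 177, n = 2) and 106 CPM in the other SPON tumours (SD 50.7, n = 3). The mean was 83.1 ± 21.9 CPM in WT (SD, n = 5), 2019 ± 380 CPM in RP6306 (SD, n = 11), 1746 ± 468 CPM in VEH (SD, n = 4), 842 ± 92.8 CPM in RP6306_7 (SD, n = 4) and 829.2 ± 133 CPM in VEH_7 (SD, n = 3). Tes was high with it in RP6306, at 3755 ± 1188 CPM, and in VEH, at 1724 ± 495 CPM, whereas RP6306_7 had 44.6 ± 3.16 CPM and VEH_7 35.6 ± 3.15 CPM. In these 4 groups Trp53 stayed at 20.2 CPM or above. The groups differ in origin and treatment, so these levels are given side by side with no test.

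**Figure D3:**
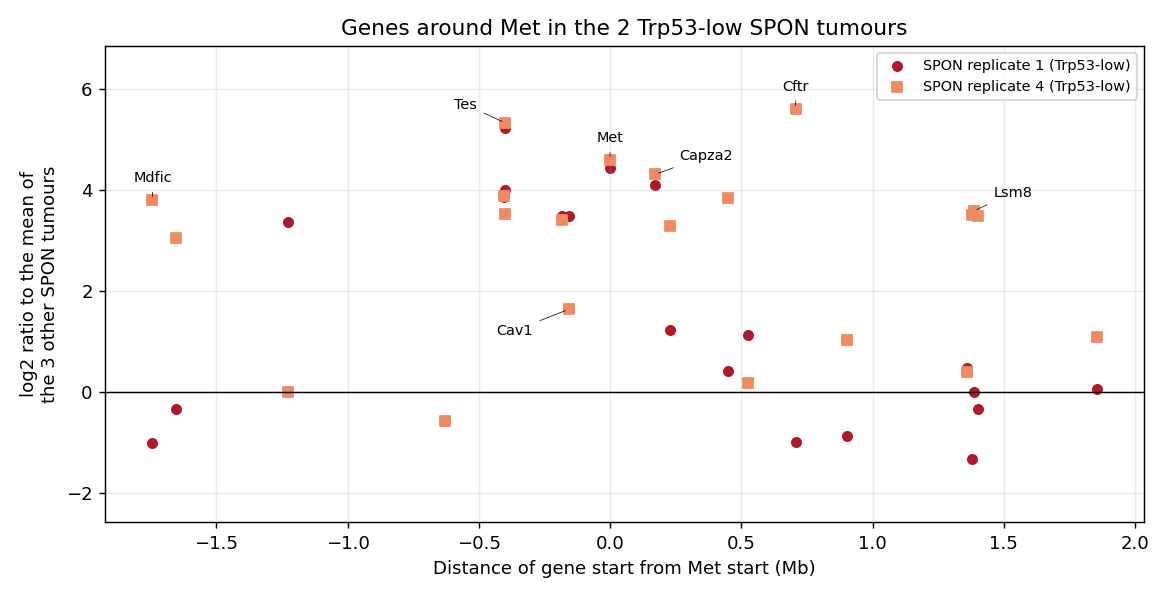
Log2 ratio of each Trp53-low SPON tumour to the mean of the 3 other SPON tumours (with 0.5 CPM added to both), by the distance in Mb between the lower coordinates of each gene and of Met. Tes, Met and Capza2 are high in both tumours, and Mdfic, Cftr and Lsm8 in SPON replicate 4 (squares) alone.

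2 casein genes rose in the Trp53-low tumours. Caseins are made by the luminal cells of the lactating mammary gland, where prolactin acts through the transcription factor STAT5. Csn1s1, the alpha-S1 casein gene, had 122 and 84.4 CPM in the Trp53-low tumours and 2.43, 1.36 and 3.64 CPM in the other SPON tumours. Its log2 fold change was 5.42 with an SE of 0.54 (edgeR adjusted p = 0.0273). Csn2, the beta casein gene, had 52.8 and 95.4 CPM against 2.22, 2.86 and 3.24 CPM, a log2 fold change of 4.78 with an SE of 0.47 (edgeR adjusted p = 0.0273). In both genes the groups lay far apart. Of 15 milk and alveolar genes 11 passed the filter on low counts. edgeR and limma voom called 2 of these, both higher, and DESeq2 called 5 higher and 1 lower. The edgeR share was 18.2%, against 0.295% of all tested genes called higher. In 7 of the 11 both Trp53-low tumours lay above all others and in 1 both lay below (63.6% and 9.09%, against 13.3% and 16.1% of all tested genes). These shares are a description only, since some members could pass the filter through the Trp53-low tumours alone. Csn1s2a had 5.45 and 9.49 CPM against 1.08, 0.817 and 0.0791 CPM without passing the test (edgeR adjusted p = 0.196). Folr1, a folate receptor gene, was the member below the others, with 1.87 and 0.387 CPM against 7.13, 18.9 and 77.0 CPM.

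The start windows of the 3 neighbouring casein genes are shown because Csn1s1 and Csn2 rose and Csn1s2a lay on the same side. They are RefSeq windows of the same size on GRCm38.p6, at chr5:87665958-87666257 on the plus strand for Csn1s1, chr5:87699376-87699675 on the minus strand for Csn2 and chr5:87774200-87774499 on the plus strand for Csn1s2a. Capitals mark matches to the letters TTCNNNGAA, the form of site that STAT5 binds, searched on both strands. Each window held 1 match, and at least 1 was found in 8.3% of all 32851 windows. Such a match is a description of the letters only.
Csn1s1: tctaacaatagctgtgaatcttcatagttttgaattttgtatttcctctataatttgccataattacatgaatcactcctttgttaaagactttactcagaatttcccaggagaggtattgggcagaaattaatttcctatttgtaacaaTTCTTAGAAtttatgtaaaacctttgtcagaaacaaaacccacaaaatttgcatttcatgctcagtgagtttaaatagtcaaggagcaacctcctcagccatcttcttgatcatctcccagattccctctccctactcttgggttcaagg
Csn2: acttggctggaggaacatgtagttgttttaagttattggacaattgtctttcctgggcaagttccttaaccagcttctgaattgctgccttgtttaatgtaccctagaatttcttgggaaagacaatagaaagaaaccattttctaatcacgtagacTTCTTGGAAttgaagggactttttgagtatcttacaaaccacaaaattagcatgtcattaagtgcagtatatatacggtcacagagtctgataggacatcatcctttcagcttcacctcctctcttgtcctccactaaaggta
Csn1s2a: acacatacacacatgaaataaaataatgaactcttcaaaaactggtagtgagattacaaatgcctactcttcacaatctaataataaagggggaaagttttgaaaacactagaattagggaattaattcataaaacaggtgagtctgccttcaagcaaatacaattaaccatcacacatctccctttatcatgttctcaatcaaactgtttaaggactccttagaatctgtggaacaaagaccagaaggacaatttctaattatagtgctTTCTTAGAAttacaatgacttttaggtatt

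Lama3 rose as well. Lama3 and Lamb3 encode laminin chains, which help to anchor epithelia to the membrane beneath them. Lama3 had 61.0 and 76.5 CPM in the Trp53-low tumours and 2.89, 1.43 and 3.08 CPM in the other SPON tumours, a log2 fold change of 4.84 with an SE of 0.50 (edgeR adjusted p = 0.0284). In Lamb3 the groups did not overlap either, at 194 and 189 CPM against 6.25, 37.1 and 6.41 CPM, with an edgeR adjusted p of 0.122. Among 22 tested basal and myoepithelial genes, edgeR and limma voom called 2 and DESeq2 called 4, all higher, and Lama3 was among the edgeR calls (9.09%, against 0.295% of all genes). Of the 22, 10 members lay above all others in both tumours and 2 lay below (45.5% and 9.09%, against 13.3% and 16.1% of all tested genes), and the median log2 fold change was 1.09. Members that define basal and myoepithelial cells did not all go the same way. Krt14 had 456 and 132 CPM against 25.1, 9.06 and 5.85 CPM (edgeR adjusted p = 0.0714). Krt5 had 19.2 and 1.03 CPM against 30.4, 0.613 and 4.67 CPM, and Trp63, a relative of Trp53 that marks basal cells, had 8.33 and 10.1 CPM against 17.98, 0.408 and 0.791 CPM.

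Of the genes called higher, Kng2, a kininogen gene, had the largest change. Kng2 had 80.1 and 45.3 CPM in the Trp53-low tumours and 0.672, 0 and 0.475 CPM in the other SPON tumours, where it had 19 reads in all. Its log2 fold change was 7.34 with an SE of 0.9995 (edgeR adjusted p = 0.0419), and 8.08 without SPON replicate 2. Its close paralog Kng1, with which it can share reads, had 90.7 and 47.9 CPM against 0, 0 and 1.98 CPM (edgeR adjusted p = 0.128), so the split between both genes is uncertain. Wnt7b, a secreted Wnt ligand, had 269 and 290.1 CPM against 3.67, 2.25 and 10.3 CPM, a log2 fold change of 5.74 (edgeR adjusted p = 0.0374) that was 6.61 without replicate 5. It was the only one of 20 tested Wnt genes called by edgeR or by limma voom, and DESeq2 called 6, all higher. Axin2, a gene that Wnt signalling induces in many cells, had 8.95 and 15.8 CPM against 2.27, 1.63 and 1.503 CPM without passing the test (edgeR adjusted p = 0.123). In all, 7 of the 20 Wnt genes had both Trp53-low tumours above all others (35%, against 13.3% of all tested genes) and 1 below. Plppr3, a membrane protein related to lipid phosphatases, had 348 and 317 CPM against 13.02, 10.9 and 14.2 CPM. Its log2 fold change of 4.75 had the smallest p of all genes (edgeR adjusted p = 0.0273).

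Further genes with higher RNA in the Trp53-low tumours had varied roles. Anxa8, an annexin, had 64.8 and 25.1 CPM against 1.03, 1.02 and 2.37 CPM, a log2 fold change of 4.98 that was 4.14 without SPON replicate 1. Aldh1a3, an enzyme of retinoic acid synthesis, had 129 and 63.4 CPM against 2.89, 1.77 and 5.93 CPM, with a log2 fold change of 4.81 that was 5.41 without replicate 5. For Prss22, a serine protease, the values were 75.5 and 32.7 CPM against 3.56, 1.02 and 1.34 CPM, and its log2 fold change of 4.81 was 5.54 without replicate 2. S100a8, which encodes part of calprotectin and is abundant in neutrophils, had 31.8 and 24.7 CPM against 2.17, 1.97 and 2.37 CPM (log2 fold change 3.74). It lay in a run of 5 higher neighbours on chromosome 3, with S100a3, S100a4, S100a6 and S100a9, of which only S100a8 and S100a9 are on the neutrophil list. Of 15 neutrophil markers 11 passed the filter, edgeR and limma voom called S100a8 alone, and DESeq2 called 2, both higher. The edgeR share was 9.09%, against 0.295% of all tested genes called higher. In 3 of the 11 both Trp53-low tumours lay above all others and in 0 below (27.3% and 0%, against 13.3% and 16.1% of all tested genes). These shares are a description only. The neutrophil genes Ly6g, Camp and Ngp had at most 8 reads in any SPON tumour. The summed CPM of that list overlapped, at 7978 and 2489 in the Trp53-low tumours against 5573, 880.2 and 2154 in the other SPON tumours. The list holds Lcn2, which averaged 10942 CPM in WT tumours, where the whole list summed to between 8115 and 17696 CPM. The sum can thus rest on 1 gene and is not a measure of neutrophils.

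Among genes with lower RNA in the Trp53-low tumours, Tesc had the largest change. Tesc, which encodes the calcium-binding protein tescalcin, had 4.28 and 3.03 CPM in the Trp53-low tumours and 352, 168 and 936 CPM in the other SPON tumours. Its log2 fold change was -7.01 with an SE of 0.997 (edgeR adjusted p = 0.0419), and -6.10 without SPON replicate 5. Grk3, a kinase that desensitises G protein-coupled receptors, had 1.32 and 2.52 CPM against 88.6, 123 and 115 CPM, a log2 fold change of -5.77 (edgeR adjusted p = 0.0273). In both genes even the lowest of the other 3 tumours was far above both Trp53-low tumours. Slc5a1, an intestinal and renal sodium and glucose cotransporter, had 1.17 and 0.452 CPM against 18.3, 55.8 and 42.7 CPM, with a log2 fold change of -5.54 that was -6.35 without replicate 1. Homer2, a scaffold protein of synapses, had 0.934 and 2.39 CPM against 73.1, 98.0 and 61.3 CPM, with a log2 fold change of -5.48 that was -6.32 without replicate 4.

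The remaining genes of lower RNA followed the same pattern. Cldn10, a claudin of tight junctions, had 11.7 and 12.2 CPM against 159, 337 and 528 CPM (log2 fold change -4.79, edgeR adjusted p = 0.0419). Chad, which encodes the matrix protein chondroadherin, had 4.75 and 4.52 CPM against 126, 173 and 107 CPM (log2 fold change -4.82, edgeR adjusted p = 0.0273). Sidt1, a membrane protein linked to RNA transport, had 1.40 and 1.29 CPM against 56.8, 76.9 and 40.7 CPM. Snph, Pdzk1ip1 and Tmem56 had log2 fold changes of -5.58, -5.24 and -5.33, and each was under 1 CPM in both Trp53-low tumours and above 15 CPM in the other 3. Tmem56 reached -6.06 without SPON replicate 1.

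**Figure D4:**
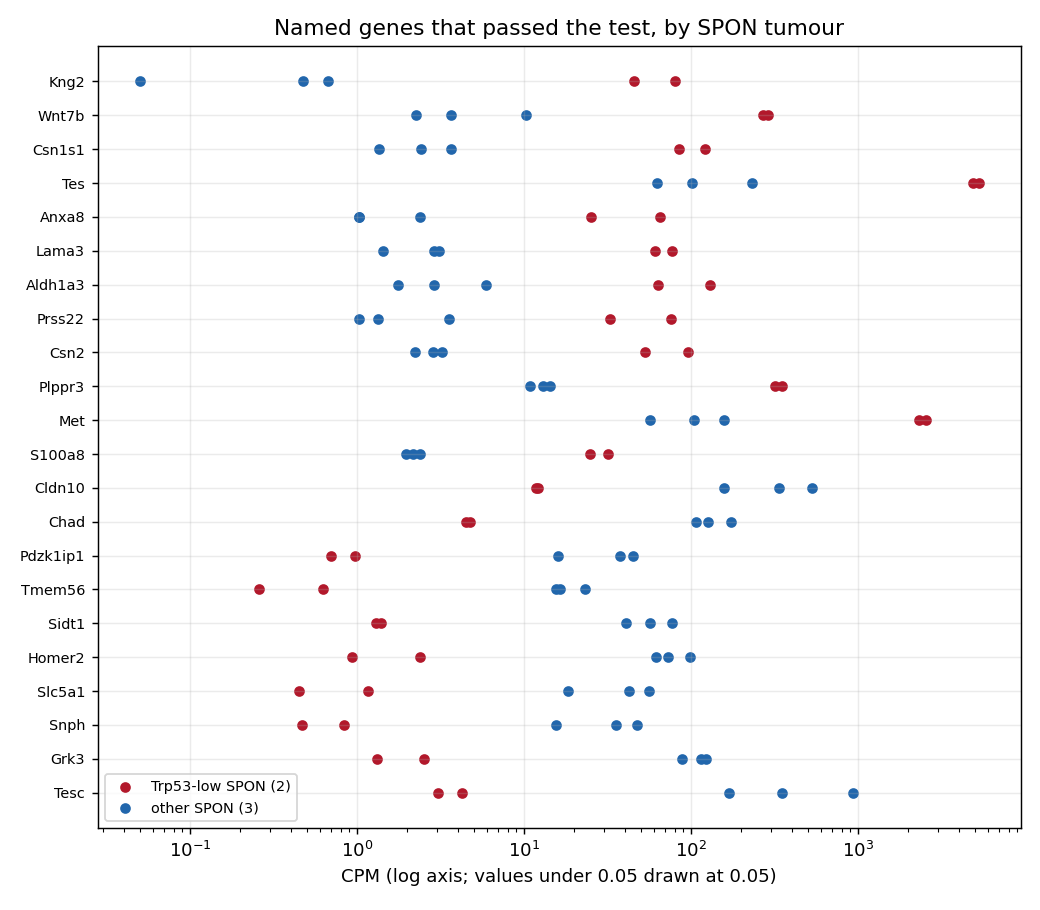
CPM on a log axis in the 2 Trp53-low SPON tumours (red) and the 3 other SPON tumours (blue) for 22 named genes that passed the test, ordered by log2 fold change. In each gene the red and blue points do not overlap.

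Genes that p53 induces did not fall together in the Trp53-low tumours. Of 50 such genes, 48 were tested and none was called in either direction, against 0.44% of all tested genes. Their median log2 fold change was -0.10, with 9 genes above all others in both Trp53-low tumours (18.8%, against 13.3% of all tested genes) and 12 below (25%, against 16.1%). At an unadjusted p under 0.05 were 10 of the 48, against 2113 of all 15927 tested genes. Of the 10, 7 had more and 3 less RNA in the Trp53-low tumours. DESeq2 called 3 with more and 2 with less, against 526 and 616 of all tested genes, and limma voom none. The summed CPM of the list was 2243 and 1990 in the Trp53-low tumours and 2166.1, 1783 and 2571 in the other SPON tumours, so the groups overlapped. In WT tumours the sum lay between 2275 and 3115.

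Single p53 targets went both ways. Cdkn1a, the cyclin-dependent kinase inhibitor p21 and a classic p53 target, had 45.9 and 48.8 CPM in the Trp53-low tumours and 30.2, 20.7 and 18.4 CPM in the other SPON tumours (log2 fold change 1.08, SE 0.39, edgeR adjusted p = 0.299). Both Trp53-low tumours lay above all 3 others without passing the test. Mdm2 overlapped, at 84.4 and 90.4 CPM against 86.8, 36.3 and 45.6 CPM. Ccng1, a cyclin induced by p53, had 26.5 and 30.9 CPM against 50.9, 61.5 and 43.2 CPM (log2 fold change -0.81, SE 0.38, edgeR adjusted p = 0.421). The WT tumours, which had the most Trp53, averaged 116 ± 31.9 CPM of Cdkn1a and 144 ± 49.8 CPM of Ccng1 (SD, n = 5). Neither level was reached by any SPON tumour.

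The p53 targets with the smallest p were Phlda3, Ddit4, Ephx1, Psrc1 and Fas. Phlda3, an inhibitor of Akt signalling, had 68.7 and 45.4 CPM against 9.30, 12.1 and 15.3 CPM (log2 fold change 2.27, SE 0.43, edgeR adjusted p = 0.081). Ddit4, an inhibitor of mTORC1 that hypoxia and glucocorticoids also induce, had 303 and 324 CPM against 98.0, 72.9 and 107 CPM (edgeR adjusted p = 0.0987). Ephx1, an epoxide hydrolase, was on the low side with 8.87 and 5.75 CPM against 18.3, 34.0 and 27.3 CPM. Psrc1, a spindle protein, had 42.4 and 11.8 CPM against 122, 73.7 and 289.8 CPM, a log2 fold change of -2.54 that was -3.73 without SPON replicate 1. The death receptor gene Fas had 5.84 and 6.52 CPM against 1.91, 1.29 and 0.791 CPM. In all 5 the groups did not overlap and none passed the test.

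Genes that act on p53 or cooperate with it were measured too. Cdkn2a, whose Arf product blocks Mdm2 and whose Ink4a product blocks Cdk4, had 351 and 146 CPM in the Trp53-low tumours and 43.0, 148 and 302 CPM in the other SPON tumours. The groups overlapped, and the sign of the difference changed when replicate 1 was left out. None of 21 tested p53 family members and regulators was called by edgeR or limma voom, 5 had an unadjusted p under 0.05, and DESeq2 called 1 in each direction. Rb1, the retinoblastoma tumour suppressor, had 76.6 and 102 CPM against 23.9, 20.3 and 15.4 CPM without passing the test (log2 fold change 2.21, edgeR adjusted p = 0.0676). Neither the cyclin E gene Ccne1, with 12.7 and 7.36 CPM against 2.63, 9.40 and 2.53 CPM, nor Pkmyt1, with 45.8 and 46.5 CPM against 35.4, 59.4 and 43.7 CPM, separated the groups. Mki67, a marker of dividing cells, overlapped at 445 and 459 CPM against 939, 418 and 526.4 CPM.

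Lists of dividing-cell and repair genes held no gene called by edgeR, DESeq2 or limma voom, and in each 1 gene had an unadjusted p under 0.05. Of 42 tested genes of G1/S and DNA replication, 3 lay above all others in both Trp53-low tumours and 10 below (7.14% and 23.8%, against 13.3% and 16.1% of all tested genes), with a median log2 fold change of -0.12. For 37 genes of G2/M and mitosis the counts were 1 and 5, with a median of -0.07. Among 29 DNA repair genes they were 2 and 10 (6.9% and 34.5%), with a median of -0.25. The list of 20 immediate early and stress genes stood on the other side, with 10 above and 1 below (50% and 5%) and a median of 0.81. Of these, Hspa1b, a heat shock chaperone gene, had 127 and 518 CPM against 49.9, 47.0 and 48.7 CPM, and Fosl1, an AP-1 subunit gene, had 32.4 and 15.2 CPM against 3.41, 0.545 and 1.58 CPM. Hspa1a, the near-identical neighbour of Hspa1b, can share its reads, so the values of both are uncertain. None of the 20 was called by edgeR or limma voom, 8 had an unadjusted p under 0.05, and DESeq2 called 6 higher and 1 lower.

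**Figure D5:**
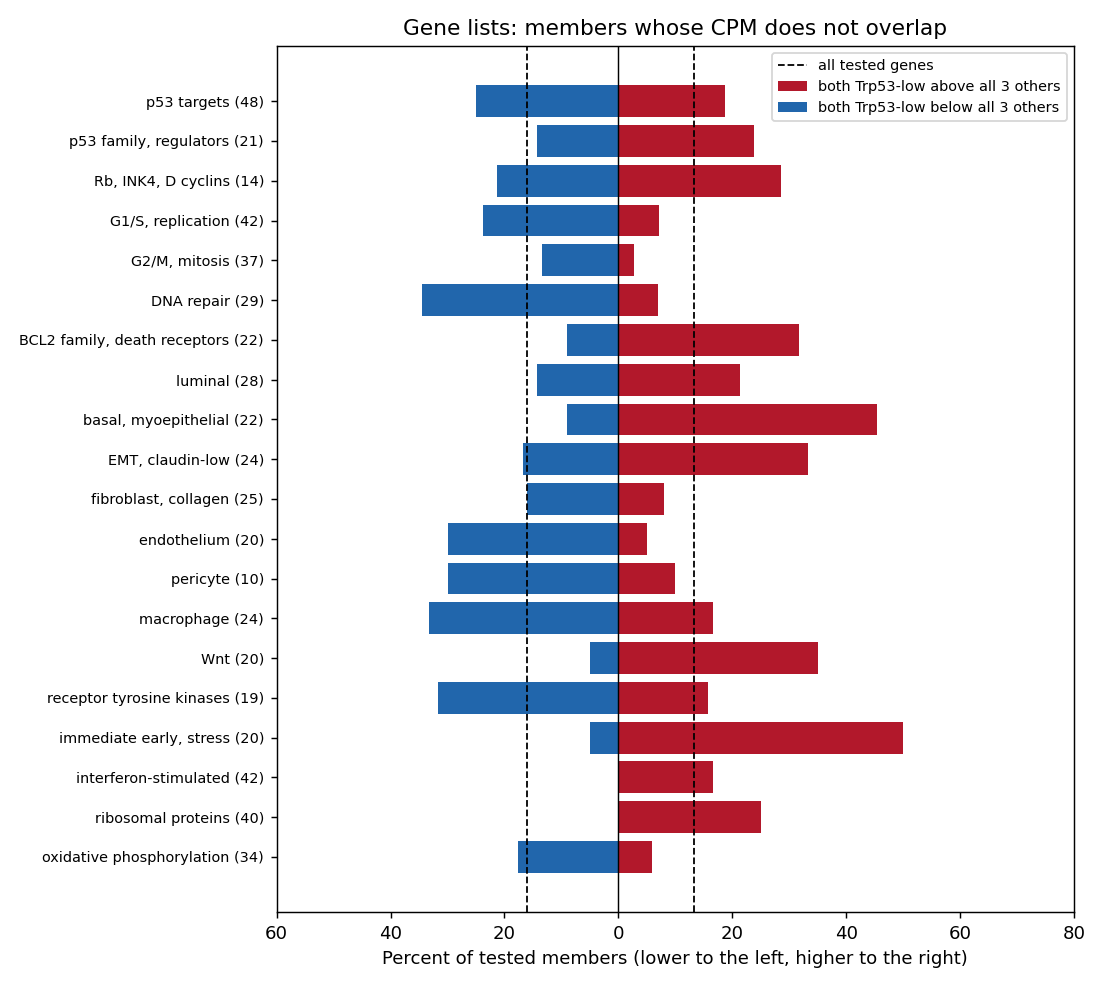
Share of the tested members of 20 gene lists (number in brackets) with at least 80% of their members tested in which both Trp53-low SPON tumours lay above (red, right) or below (blue, left) all 3 other SPON tumours. Dashed lines give the shares over all tested genes, 13.3% above and 16.1% below, and the immediate early and basal lists depart furthest from them, with 50% and 45.5% above.

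Epithelial markers were present in all 5 SPON tumours. Epcam, an epithelial adhesion molecule, had 1209 and 1358 CPM in the Trp53-low tumours and 1563, 1172 and 1693 CPM in the other SPON tumours. The summed CPM of luminal genes was 13546 and 9825 against 6941, 8683 and 9384. Krt8 and Krt18, the keratins of luminal epithelium, were detected in all 5 tumours, with Krt8 at 2806 and 1481 CPM against 449, 1654 and 888 CPM. Foxa1, a luminal transcription factor, had 9.88 and 14.1 CPM against 0.517, 0.136 and 0.237 CPM (edgeR adjusted p = 0.0558). Spdef, another, had 0.389 and 0.646 CPM against 3.82, 26.2 and 144 CPM (edgeR adjusted p = 0.147). None of the 28 tested luminal genes was called by edgeR or limma voom, 4 with more and 2 with less RNA had an unadjusted p under 0.05, and DESeq2 called 3 higher and 1 lower. Both Trp53-low tumours lay above all others in 6 of the 28, with Foxa1, Krt19 and Krt7 among them. They lay below in 4, with Spdef among them. These shares were 21.4% and 14.3%, against 13.3% and 16.1% of all tested genes.

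Matrix and mesenchymal genes gave no edgeR call. Fn1, which encodes fibronectin, had 2758 and 5337 CPM in the Trp53-low tumours and 267, 167 and 380 CPM in the other SPON tumours (log2 fold change 3.94, edgeR adjusted p = 0.0638). Snai1, a transcription factor of the epithelial to mesenchymal transition, had 84.5 and 39.3 CPM against 3.36, 2.72 and 6.80 CPM (edgeR adjusted p = 0.0516). Vim, which encodes vimentin, overlapped with 1540 and 290.4 CPM against 387, 261 and 720.1 CPM, and its log2 fold change was 1.05, or -0.60 without SPON replicate 1. Of 24 tested members of that list, 8 lay above all others in both tumours and 4 below (33.3% and 16.7%, against 13.3% and 16.1% of all tested genes). Without replicate 1, 9 lay above and 8 below. Of these 24, 9 with more and 1 with less RNA had an unadjusted p under 0.05, DESeq2 called 7 higher, and limma voom called 1 higher.

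Markers of immune cells and blood were measured beside these genes. Of 30 T and NK cell genes, 14 passed the filter on low counts, several of them through the other SPON tumours alone, so their values are given as a description. None was called by edgeR or limma voom, 6 had an unadjusted p under 0.05, and DESeq2 called 2 lower. The summed CPM of the 30 genes was 41.2 and 23.7 in the Trp53-low tumours and 42.4, 160 and 112 in the other SPON tumours, and 20 and 8 of them were listed at 0 against 3, 2 and 2. Thy1, which fibroblasts also express, made up 19.5 and 13.4 CPM of the Trp53-low sums. In WT tumours the list summed to between 29.1 and 43.9 CPM. Cd8a had 0 and 0.0646 CPM against 0.930, 5.58 and 1.19 CPM, and Cd3e had 0 and 0.0646 CPM against 0.723, 2.52 and 1.19 CPM. Red cell genes summed to 90.4 and 47.1 CPM against 131, 236 and 3071 CPM, where replicate 5 stood apart. Summed macrophage markers were 5434 and 4837 CPM against 2043, 4715 and 3660 CPM, although the median log2 fold change of the 24 tested members was -0.61. Of the 24, 7 were higher and 17 lower. Both Trp53-low tumours lay above all others in 4 and below in 8 (16.7% and 33.3%, against 13.3% and 16.1% of all tested genes). The sum can rest on 1 gene, as Spp1 averaged 5066 CPM in WT tumours, where the list summed to between 4048 and 10986.5 CPM. In Spp1 both Trp53-low tumours lay above all other SPON tumours, with a log2 fold change of at least 1.5. The sum is thus not a measure of macrophages. Summed endothelial markers overlapped at 324 and 303 CPM against 283, 427 and 653 CPM. Of the 20 tested endothelial genes 2 were higher and 18 lower, with a median log2 fold change of -0.75 and no edgeR call. Both Trp53-low tumours lay above all others in 1 and below in 6 (5% and 30%, against 13.3% and 16.1% of all tested genes). The part of these cells in the differences described above was not tested.

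The other 3 SPON tumours were themselves not uniform. Fgfr2, a receptor for fibroblast growth factors, had 2.72 and 0.581 CPM in the Trp53-low tumours, and 4.80, 41.2 and 5059 CPM in the other SPON tumours. Its edgeR adjusted p was 0.26, with a log2 fold change of -9.99 and an SE of 3.37, and replicate 5 alone was very high. Of 19 tested receptor tyrosine kinases and their ligands, Met was the only call by edgeR or limma voom, and DESeq2 called 1 higher and 2 lower. Of the 19, 3 lay above and 6 below all others in both Trp53-low tumours (15.8% and 31.6%, against 13.3% and 16.1% of all tested genes).

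The 70 called genes were also placed beside the other groups of the series, with no test. They had been picked for a gap between the Trp53-low and the other 3 SPON tumours. A group mean beyond those 3 is therefore partly set by that choice, and the share over all tested genes was not computed. The counts do not measure how alike the groups are. Of the 47 genes that were higher in the Trp53-low tumours, the mean CPM of the WT tumours was above all 3 other SPON tumours in 36, that of RP6306 in 47, of VEH in 39, of RP6306_7 in 32 and of VEH_7 in 30. Of the 23 lower genes, the group mean was below all 3 in 15 for WT, in 22 for RP6306 and in 23 for each of VEH, RP6306_7 and VEH_7. Tesc, for example, had a mean of 3.66 CPM in the Trp53-low tumours and 485 CPM in the other SPON tumours, beside 47.5 ± 38.0 CPM in WT (SD, n = 5) and 1.67 ± 2.998 CPM in RP6306 (SD, n = 11). Kng2 stood at 104 ± 42.5 CPM in RP6306 and 1.26 ± 1.27 CPM in WT, and Csn2 at 609.9 ± 403 CPM in RP6306 and 19.02 ± 27.1 CPM in WT. Fewer means reached the Trp53-low tumours. The mean was at or above the lower of the 2 Trp53-low values in 2 of the 47 higher genes for WT, 23 for RP6306, 12 for VEH, 5 for RP6306_7 and 6 for VEH_7. It was at or below the higher Trp53-low value in 1 of the 23 lower genes for WT, 11 for RP6306, 13 for VEH, 11 for RP6306_7 and 12 for VEH_7.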

How the data were processed

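Total RNA of 33 mouse mammary tumours was extracted with Trizol and sequenced, per the labels' protocols. The authors deposited raw counts of reads per gene, and the submitters' processing notes name STAR 2.7.10a, HTSeq, edgeR and GRCm38. Kit, strand setting and annotation release are not given there. The 54532 rows of the table (791 with no symbol) were used as deposited, with gene positions from GENCODE M21.

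The fit used the 5 SPON libraries alone with edgeR 4.0.16 in R 4.3.3, on genes kept by filterByExpr, with TMM factors, the quasi-likelihood test and Benjamini-Hochberg adjustment over 15927 genes. A gene that is low in one kind of tumour can pass the filter through the other. Printed CPM use TMM factors over all 33 libraries, and the code was tested on simulated data. DESeq2 1.42.0 and limma 3.58.1 served as alternatives. Trp53 was in the fit but not counted. Each printed SE is the size of the log2 fold change divided by the square root of the quasi-likelihood F statistic. It was thus derived from the test and not estimated separately.

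The tumours and the gene lists were chosen with earlier results of these data known. Named genes were 10 fixed genes, the 10 largest changes called in each direction leaving out genes under an average log2 CPM of 1 and predicted genes, clones and pseudogenes, up to 3 called members of each of the 6 lists with the highest called share, and the 5 p53 targets with the smallest p. Further genes are neighbours or list members picked after their values were seen. Results for 1 further gene that meets this rule are not reported here.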

Additional observations from a re-analysis of the deposited data

Results flagged for a closer look

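Among 15 groups of values checked for a single distant tumour, 1 stood out. Met in WT replicate 4 was at 121 CPM, with the next WT tumour at 78.4 CPM, a gap of 0.747 of the range of the 5 WT tumours. Chance flags about 1 in 20 such groups. The value lies far under the Trp53-low SPON tumours, at 2303 and 2553 CPM.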

How the results depend on the processing

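Of the 70 called genes, all kept their direction in every alternative, and the number of calls moved widely. With no filter on low counts there were 1413 calls (653 higher, 760 lower), with DESeq2 1142 (526 and 616), and with 1 fit over 32 libraries 3713 (1794 and 1919). Each of these held all 70 genes, with 46.2%, 46.1% and 48.3% of the calls higher, against 67.1% with edgeR on the SPON libraries. With limma voom 65 genes were called, 15 of them lower, and 49 were among the 70. With DESeq2 size factors the same 70 were called. Leaving out 1 SPON library gave 0 to 225 calls (0 to 119 higher and 0 to 106 lower). The count of genes whose groups do not overlap then lay between 2824 and 4326 higher and between 3252 and 4815 lower, since fewer libraries overlap less often. In these fits the median log2 fold change within 1 Mb of Trp53 lay between -0.24 and -0.051, and within 5 Mb between -0.23 and -0.031. With no filter it was -0.24 within 5 Mb, and with the fit over 32 libraries -0.19. The sign turned for Cdkn2a without replicate 1 (range -0.12 to 1.43), Pkmyt1 without replicate 2 (range -0.13 to 0.24) and Vim without replicate 1 (range -0.60 to 1.79), and the cause was not tested. No paired analysis was possible because the SPON replicate numbers come from accession order and pair no samples. With 2 libraries against 3, the spread between tumours limits what can be called.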

Other observations

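Further lists held no gene called by edgeR, and limma voom called 1 squamous gene. Of 40 ribosomal protein genes, 10 had both Trp53-low tumours above all 3 other SPON tumours and none below (25% and 0%, against 13.3% and 16.1% of all tested genes). Without replicate 1 these counts were 10 and 6, and without replicate 4 they were 28 and 0. The list summed to 34654 and 17810 CPM in the Trp53-low tumours and 16728, 18813 and 30578 CPM in the other SPON tumours, so the groups overlapped and replicate 1 was the highest. Of 42 interferon-stimulated genes, 7 lay above and none below (16.7% and 0%, the first near the share of all tested genes), and without replicate 3 the counts were 32 and 0. Of 34 genes of oxidative phosphorylation, 2 lay above and 6 below (5.88% and 17.6%, the second near the share of all tested genes), and without replicate 1 the counts were 3 and 19. Of 18 squamous genes 7 passed the filter on low counts. Some could pass through the Trp53-low tumours alone, so their values and calls are a description only. The 18 genes summed to 110.1 and 73.5 CPM in the Trp53-low tumours and 25.5, 25.5 and 16.8 CPM in the other SPON tumours. In the Trp53-low tumours 3 and 6 of them were listed at 0, against 7, 9 and 13 in the others. At an unadjusted p under 0.05 were 3 ribosomal and 2 interferon-stimulated genes with more RNA, 2 oxidative phosphorylation genes with less and 4 squamous genes with more, and DESeq2 called 2 of the interferon-stimulated and 4 of the squamous genes.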
